A study of Mus musculus with 6 samples.

Results

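The 4 Janus kinases (Jak1, Jak2, Jak3 and Tyk2), 2 PIAS proteins (Pias1 and Pias3) and 4 protein tyrosine phosphatases that act on them (Ptpn1, Ptpn2, Ptpn6 and Ptpn11) were followed in primary mouse cancer-associated fibroblasts (CAFs) after silencing of STAT3. The genes were taken by symbol, and all 10 were found among the 24015 symbols of the count table. The fibroblasts came from mammary tumours that arise in NeuT transgenic BalbC mice, which carry an activated Her2/neu oncogene. They were cultured with nanoparticles carrying control siRNA in 3 samples and anti-Stat3 siRNA in the other 3, both at 1 ug/mL and for 72 hours, and their poly(A) RNA was sequenced. The design asks which transcripts depend on STAT3 in these cells. Primary cultures can retain other cells of the tumour, and the sources used here do not say how pure each culture was. In such bulk samples, fewer cells of a type and less RNA per cell cannot be told apart.

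Cytokine receptors of this pathway have no kinase activity of their own and rely on JAK kinases bound to their tails. Ligand binding lets the JAKs activate each other and phosphorylate the receptor, and STAT proteins dock there, are phosphorylated, pair up and enter the nucleus. The signal is ended by phosphatases that remove these phosphates, by SOCS proteins made in response to STATs, and by PIAS proteins, which bind STATs and act as SUMO ligases. JAK1, JAK2 and TYK2 serve the gp130 receptors of the IL-6 family, which activate STAT3. JAK3 serves receptors that contain the common gamma chain, and it and PTPN6 (SHP-1) are best known from blood cells.

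Samples that carry the same number in the 2 groups deviated together from their group means, with correlations from 0.82 to 0.83 across genes, and each number is called a pair. Pair 1 stood apart in its cell type markers, which touches several results. The median of 22 macrophage markers was 0.27, 28.7 and 55.1 CPM (the count scaled to a common library total) in control samples 1 to 3, and 0.41, 29.3 and 47.0 CPM in anti-Stat3 samples 1 to 3. Their summed level ranged from 49.0 to 2607 CPM in the controls and from 44.8 to 2980 CPM after anti-Stat3 siRNA. In each sample of pair 1, 3 of the 22 had no count, and these were not the same 3 markers. Markers of T and NK cells summed to at most 1.92 CPM in any sample and markers of B cells to at most 3.22 CPM. The 14 fibroblast markers were detected in every sample, with medians from 1806 to 2968 CPM. They summed to 47373, 103471 and 119345 CPM in control samples 1 to 3 and to 53075, 74465 and 90267 CPM in anti-Stat3 samples 1 to 3. Pair 1 was thus lowest in this sum too, but not in each marker. Postn, for one, had 4112, 3705 and 2495 CPM in control samples 1 to 3, and the lowest median was in anti-Stat3 sample 2. In edgeR 11 of the 14 differed between replicate numbers, against 41.5% of all genes. Epithelial markers summed to 52.2 to 526 CPM and were highest in pair 2. Stat3 itself had 220, 359 and 405 CPM with control siRNA against 34.7, 81.9 and 78.9 CPM when silenced, so every silenced sample lay below every control.

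The 250 bases before the RefSeq start of transcription are shown for 3 genes, because the 2 genes whose level differed most between pairs, Jak3 and Ptpn6, are set beside Jak2, whose level differed little. The sequences are RefSeq's, build GRCm38.p6, whereas the counts were made on mm9. Each is written 5′ to 3′ on the gene's strand, with every CpG dinucleotide in capitals.
Jak2, chr19:29251553-29251802, strand +: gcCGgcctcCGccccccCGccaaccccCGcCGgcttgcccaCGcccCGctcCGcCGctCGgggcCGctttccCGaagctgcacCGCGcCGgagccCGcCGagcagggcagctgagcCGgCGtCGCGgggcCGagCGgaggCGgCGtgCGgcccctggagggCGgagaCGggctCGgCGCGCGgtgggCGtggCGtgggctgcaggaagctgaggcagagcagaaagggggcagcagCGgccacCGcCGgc
Jak3, chr8:71676133-71676382, strand +: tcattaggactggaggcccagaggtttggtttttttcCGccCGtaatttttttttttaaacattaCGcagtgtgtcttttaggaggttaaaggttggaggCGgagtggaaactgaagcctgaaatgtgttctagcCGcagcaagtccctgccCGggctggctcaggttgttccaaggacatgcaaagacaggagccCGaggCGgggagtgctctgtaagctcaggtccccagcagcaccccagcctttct
Ptpn6, chr6:124738710-124738959, strand -: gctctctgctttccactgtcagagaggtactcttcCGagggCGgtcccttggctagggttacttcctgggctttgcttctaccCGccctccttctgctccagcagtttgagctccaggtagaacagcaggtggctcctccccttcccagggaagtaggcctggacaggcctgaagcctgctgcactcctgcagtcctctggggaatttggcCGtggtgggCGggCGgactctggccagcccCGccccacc
The Jak3 window held 8 CpG dinucleotides and the Ptpn6 window 7, against 37 in the Jak2 window. Over all 32851 start sites of the table the median was 6 CpG dinucleotides, with quartiles of 2 and 16. Sequences were found for 9 of the 10 genes, at 10 start sites, none of them for Ptpn2. The remaining windows held 19 CpG for Jak1, 19 for Tyk2, 23 for Pias1, 41 for Ptpn1, 31 for Ptpn11, and 7 and 26 for the start sites of Pias3. The gamma-activated sequence bound by STAT dimers, TTCNNNGAA on either strand, matched in 0 of the 10 windows and in 7.02% of all windows of this length. No match says only that these letters are not in these windows.

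Jak3 was the member with the largest change. It had 4.87, 15.5 and 16.1 CPM in control samples 1 to 3, and 2.44, 4.51 and 9.21 CPM in anti-Stat3 samples 1 to 3. Each silenced sample lay below the control of its own number, but the groups overlapped, because control sample 1 was lower than anti-Stat3 sample 3. The group means were 12.1 ± 6.31 and 5.39 ± 3.46 CPM (SD, n = 3 each). The raw counts behind these levels were 72, 293 and 268 in the controls and 39, 67 and 120 after silencing. Relative to its own control, Jak3 was at 50.2% in pair 1, 29.1% in pair 2 and 57.3% in pair 3. The 95% intervals, which cover counting error only, were 33.1 to 75.1%, 21.97 to 38.1% and 45.8 to 71.3%.

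Tested by edgeR's quasi-likelihood fit with the group as the only term, the log2 change of Jak3 was -1.18 ± 0.63 (SE) and missed the threshold (unadjusted p = 0.11, adjusted p = 1.00). When the pair was added as a block the change was nearly the same and its error smaller, at -1.20 ± 0.22 in edgeR (adjusted p = 0.16) and -1.20 ± 0.23 in limma-voom (adjusted p = 0.13), and it did not pass in either. It passed in DESeq2 with that block, at -1.19 ± 0.29 (SE, adjusted p = 0.0046). That call held without pair 1 (-1.28, adjusted p = 0.015) and was lost without pair 2 (-0.89, adjusted p = 1.00) or pair 3 (-1.40, adjusted p = 0.44). Without pair 1 Jak3 also passed in blocked edgeR (-1.27, adjusted p = 0.0052).

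The level of Jak3 also differed between pairs and was lowest in pair 1, as were the macrophage markers. In the edgeR test of the replicate numbers, with the group kept in the fit, Jak3 differed between pairs by up to 1.82 on the log2 scale (adjusted p = 0.0057), and this was no longer called without pair 1 (0.45, adjusted p = 0.16). In pair 1, where the median macrophage marker had 0.27 and 0.41 CPM, Jak3 was also lower after anti-Stat3 siRNA. The 21 tested macrophage markers had median changes of -0.05, 0.14 and 0.24 in pairs 1 to 3, where Jak3 had log2 changes of -0.96, -1.75 and -0.80. None of the 21 passed in blocked DESeq2. Mrc1 alone was lower in every pair and 6 were higher in every pair, against 16.4% and 17.3% of all genes. Mrc1 had 0.27, 43.7 and 77.4 CPM with control siRNA against 0.25, 29.1 and 47.3 CPM when silenced. In pair 1 many of these changes rested on few counts, such as 4 and 4 for Mrc1 and 3 and 10 for Laptm5. Of the lymphocyte markers, which would mark the other cells known for Jak3, 9 to 11 of 15 T and NK cell markers and 1 to 6 of 7 B cell markers had no count, depending on the sample. The summed level of the neutrophil markers, like Jak3, was below its own control in all 3 pairs. The 8 in the table summed to 206, 98.2 and 3.54 CPM in the controls against 131, 53.6 and 0.997 CPM when silenced, with 1 to 4 of the 8 at 0. Most of that sum was Ltf (lactoferrin), which had 195, 95.2 and 1.20 CPM against 121, 52.4 and 0.15 CPM, and S100a9 had no count in pairs 2 and 3. Ltf alone of the 3 tested markers was lower in every pair. Camp was higher when silenced in pair 1 (7.03 against 7.46 CPM). S100a8 was higher in pair 3 (0.12 against 0.23 CPM), on 2 and 3 counts. The 3 tested neutrophil markers had median changes of -0.69, -1.04 and -1.92, and 0 of the 3 passed in blocked DESeq2. Unlike Jak3, their sum was highest in pair 1. The part of the macrophage, neutrophil or fibroblast markers in the level of Jak3, and which cells carried its transcripts, was not tested. Exons of Jak3 share 404 bases with those of Insl3 on the same strand in GENCODE M21. Insl3 had at most 2 counts in any sample.

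The 3 genes with the pattern most like that of Jak3, by Pearson correlation of log2 CPM over the 6 samples among 11912 genes, were Pdk1 (r = 0.99), Pcdhb14 (0.99) and Cdan1 (0.99). Pdk1, a kinase that inhibits pyruvate dehydrogenase, had 20.4, 51.9 and 65.1 CPM with control siRNA against 12.2, 19.2 and 38.4 CPM when silenced. With so few samples and so many candidates, such correlations describe these samples only.

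**Figure D1:**
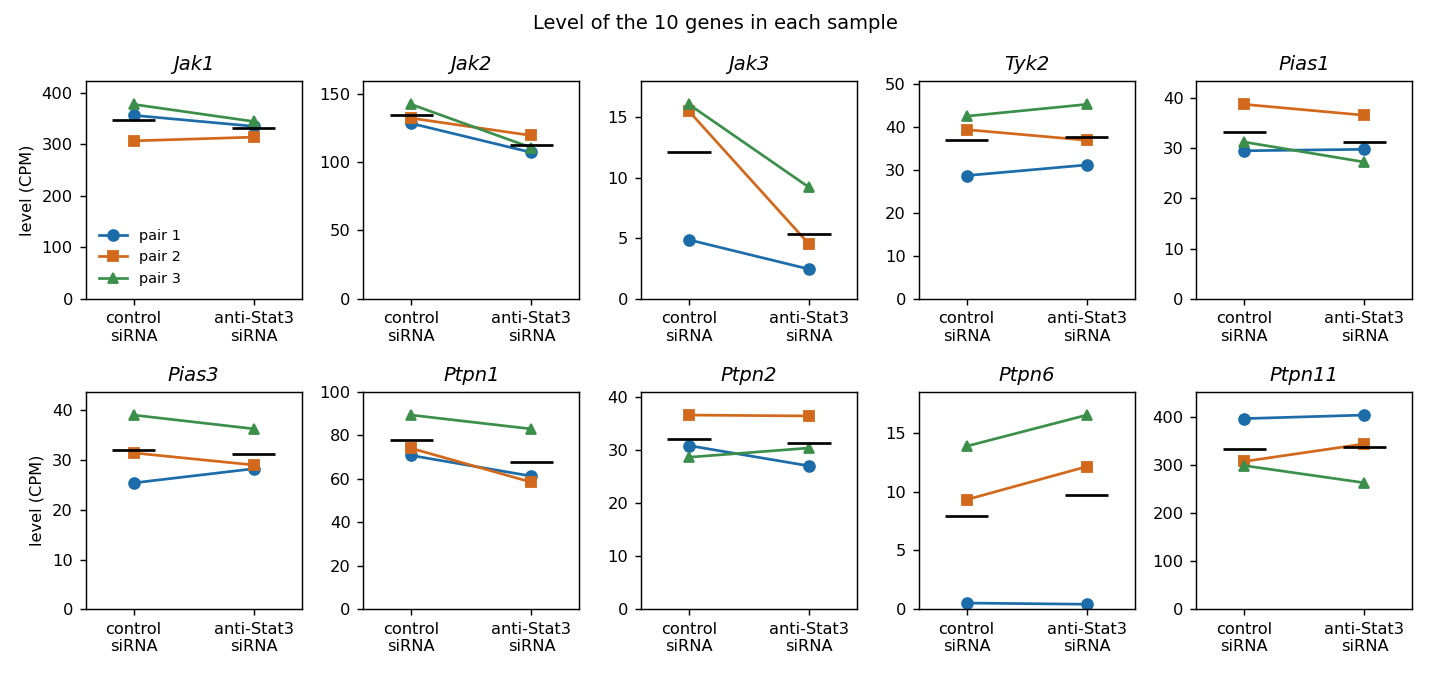
Level in CPM (vertical axes, from 0) of each of the 10 genes with control and anti-Stat3 siRNA. Points are samples, lines join samples of the same number, and black bars are group means (n = 3). All 3 lines slope down for Jak2, Jak3 and Ptpn1, and pair 1 lies near 0 for Ptpn6.

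Jak2, which transmits signals of gp130, interferon gamma and growth hormone receptors, showed a small and even difference. It had 128, 132 and 142 CPM with control siRNA against 107, 119 and 110 CPM when silenced. The groups did not overlap, with the highest silenced sample below the lowest control. The log2 change was -0.26 ± 0.13 (SE) in edgeR with the group alone (adjusted p = 1.00), and the same in blocked edgeR (adjusted p = 0.43) and blocked DESeq2 (adjusted p = 0.66), so it passed in none. The 95% interval in blocked DESeq2 ran from -0.52 to 0.01. Jak2 was the only one of the 10 genes that was lower without overlap, and 0 were higher without overlap. Of the 13284 genes tested, 296 (2.23%) were lower and 325 were higher without overlap.

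Jak1, which pairs with most cytokine receptor classes, had 356, 307 and 377 CPM with control siRNA against 335, 314 and 344 CPM when silenced. These groups overlapped, and the pair changes of -0.09, 0.03 and -0.13 did not share a direction. Tyk2, which serves the type I interferon, IL-10 and IL-12 receptors, had 28.7, 39.4 and 42.5 CPM with control siRNA against 31.2, 36.9 and 45.3 CPM when silenced. Its levels were lowest in pair 1 and highest in pair 3 with either siRNA. Log2 changes were -0.07 ± 0.16 for Jak1 and 0.04 ± 0.22 for Tyk2 (SE, edgeR with the group alone), and neither passed (adjusted p = 1.00 for both). The 95% intervals in blocked DESeq2 ran from -0.31 to 0.19 for Jak1 and from -0.27 to 0.35 for Tyk2.

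The groups overlapped for both PIAS genes. Pias1, a SUMO ligase, had 29.5, 38.7 and 31.2 CPM with control siRNA against 29.8, 36.6 and 27.2 CPM when silenced. Pias3, first known as an inhibitor of STAT3, had 25.4, 31.4 and 39.0 CPM with control siRNA against 28.2, 29.0 and 36.2 CPM when silenced. In neither gene did the 3 pairs share a direction. The log2 changes were -0.09 ± 0.19 and -0.04 ± 0.21 (SE, edgeR with the group alone, adjusted p = 1.00 for both). In blocked DESeq2 the 95% interval ran from -0.40 to 0.23 for Pias1 and from -0.35 to 0.30 for Pias3, in samples where Stat3 changed by -2.38 ± 0.16 (SE) in the same fit.

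Among the phosphatases, Ptpn1 (PTP1B), which dephosphorylates JAK2 and TYK2, was lower in each pair. It had 70.8, 74.1 and 89.4 CPM with control siRNA against 61.3, 58.5 and 83.0 CPM when silenced. The groups overlapped, since anti-Stat3 sample 3 was above control samples 1 and 2. Its log2 change was -0.21 ± 0.19 in edgeR with the group alone (SE, adjusted p = 1.00) and -0.22 ± 0.14 in blocked DESeq2 (adjusted p = 0.88), and it passed in neither. Ptpn2 (TC-PTP), its close relative, which dephosphorylates JAK1, JAK3 and nuclear STATs, had 30.9, 36.7 and 28.7 CPM in the controls. It had 27.1, 36.5 and 30.5 CPM after silencing, with pair changes of -0.19, -0.01 and 0.08, and its log2 change was -0.03 ± 0.18 (SE, edgeR with the group alone, adjusted p = 1.00). The 95% intervals in blocked DESeq2 were -0.50 to 0.06 for Ptpn1 and -0.36 to 0.29 for Ptpn2.

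Ptpn11 (SHP-2), an SH2-domain phosphatase that binds gp130 and also carries signals to the Ras and ERK pathway, had 396, 307 and 299 CPM in the controls. It had 404, 344 and 263 CPM after silencing, and its log2 change was 0.01 ± 0.22 (SE, edgeR with the group alone, adjusted p = 1.00). The samples of pair 1 were the highest and those of pair 3 the lowest with either siRNA. Its difference between replicate numbers reached 0.51 on the log2 scale in edgeR, which did not call it (adjusted p = 0.063), and 0.52 in the DESeq2 likelihood ratio test, which did (adjusted p = 0.024). The 95% interval of its change ran from -0.26 to 0.27 in blocked DESeq2.

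Ptpn6, the SH2-domain phosphatase of blood cells, was the most uneven of the 10 genes. It had 0.54, 9.31 and 13.9 CPM with control siRNA against 0.44, 12.1 and 16.5 CPM when silenced. Pair 1 rested on 8 and 7 counts, which allow 0.23 to 1.07 CPM and 0.18 to 0.90 CPM (exact 95% Poisson intervals, counting error only). Both other pairs were far above it with either siRNA, and the groups overlapped. The edgeR test of the replicate numbers gave a difference of up to 4.94 on the log2 scale (adjusted p = 6.6e-05), which was 0.50 without pair 1 (adjusted p = 0.060). The log2 change with anti-Stat3 siRNA was 0.29 ± 1.32 (SE, edgeR with the group alone, adjusted p = 1.00) and 0.25 ± 0.28 in blocked DESeq2 (adjusted p = 1.00, 95% interval from -0.31 to 0.80). For each 1000 counts of its relative Ptpn11 there were 1.36, 30.3 and 46.4 counts of Ptpn6 in the controls and 1.09, 35.3 and 62.7 after silencing. Ptpn6 was thus low and high in the same pairs as the macrophage markers, whose part in its level was not tested. Its exons share 195 bases with Gm20531 on the opposite strand, and the sources used here do not say whether counting used the strand.

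**Figure D2:**
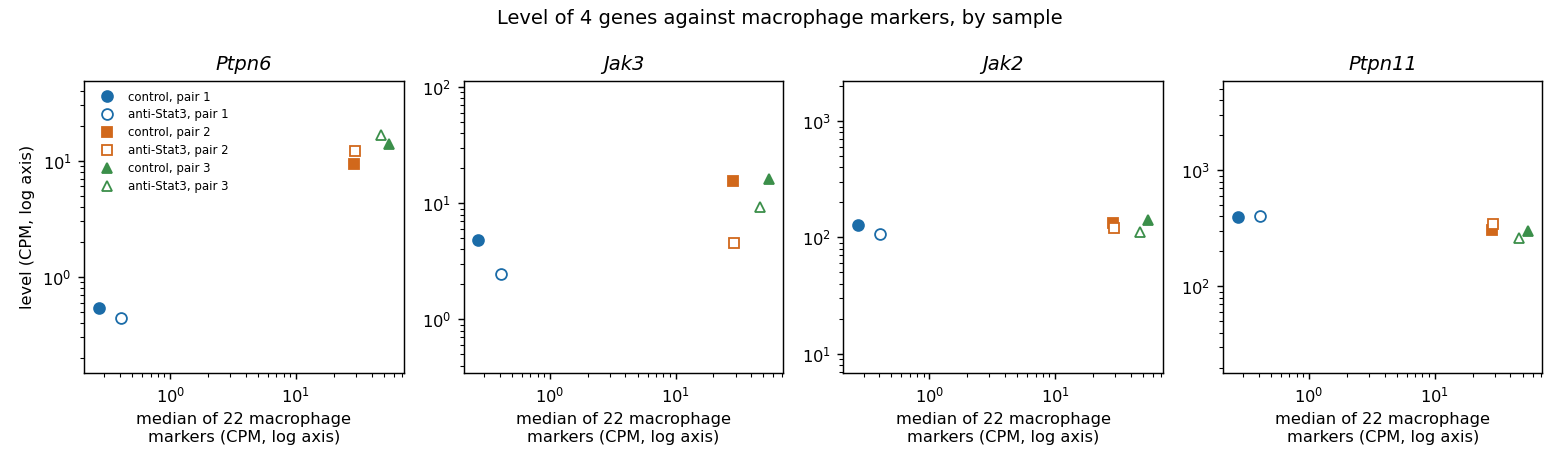
Level of Ptpn6, Jak3, Jak2 and Ptpn11 (vertical log axes in CPM, each spanning the same fold) against the median of 22 macrophage markers (horizontal log axis in CPM), with 1 point a sample. Ptpn6 is far lower in pair 1 than in the other pairs, Jak3 is lower in the anti-Stat3 sample of each pair (open below filled), and Jak2 and Ptpn11 differ by far less between pairs.

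Over the 10 genes, edgeR called 0 when only the group was fitted, as it did among all 13284 genes tested (0%). Stat3, the silenced gene, changed by -2.33 ± 0.41 (SE) in that fit and was not called either. A member not called there is therefore not shown to be unchanged. At an unadjusted p under 0.05 this edgeR fit held 0 of the 10, against 1.77% of all genes. DESeq2 with the group alone called 0 of the 10, against 0.128%. With the pair as a block, edgeR and limma-voom each called 0 of the 10 lower or higher, where each called 0.0376% of all genes lower, and edgeR held 2 of the 10, Jak2 and Jak3, at an unadjusted p under 0.05, against 10.8% of all. Blocked DESeq2 called 1 of the 10 lower, Jak3, against 0.783% of all genes, and none higher, against 0.873%. The median log2 change was -0.05 over the 10 genes and -0.0028 over all genes (edgeR with the group alone). All 3 pairs were lower for 3 of the 10 genes (Jak2, Jak3 and Ptpn1), against 16.4% of all genes, and higher for 0 of the 10, against 17.3%. The replicate numbers differed for 3 of the 10 genes in edgeR, Jak3, Ptpn6 and Tyk2, against 41.5% of all genes. For Tyk2 the difference was up to 0.55 (adjusted p = 0.032), a call lost in DESeq2 (adjusted p = 0.050) and without pair 1 (adjusted p = 0.36) or pair 3 (adjusted p = 0.089). All 3 calls were lost without pair 1.

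**Figure D3:**
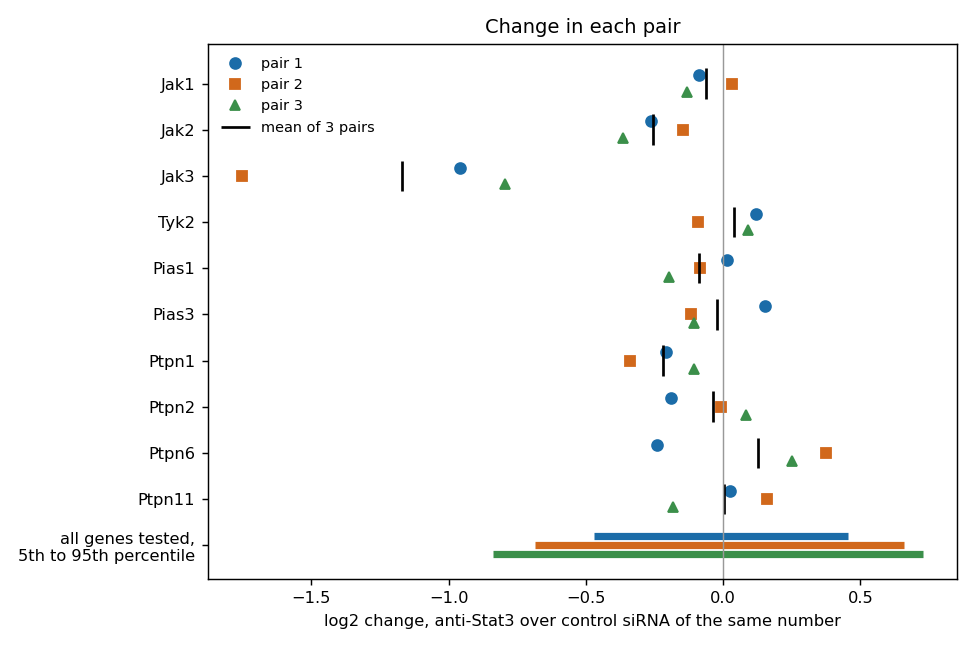
Log2 change of anti-Stat3 over control siRNA (horizontal axis) within each pair for the 10 genes, with black bars at the mean of the 3 pairs. The lowest row gives the 5th to 95th percentile of all 13284 genes tested, in each pair. Jak3 lies below that range in pairs 1 and 2 and inside it in pair 3, and the other 9 genes lie inside it in every pair.

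To compare genes with each other, CPM was divided by the length of the annotated exons. Jak1 was the most abundant of the 10 in the controls, at 70.7 ± 7.41 CPM per kb, followed by Ptpn11 at 59.6 ± 9.63 CPM per kb (SD, n = 3), and the ranges of these neighbours overlapped. Jak2 followed at 26.7 ± 1.43 and Ptpn1 at 18.5 ± 2.35 CPM per kb, each apart from its neighbours in all controls. Ptpn2 (10.6 ± 1.36) and Pias3 (10.4 ± 2.21 CPM per kb) overlapped each other. Tyk2 (6.63 ± 1.30), Pias1 (5.19 ± 0.77), Ptpn6 (3.03 ± 2.60) and Jak3 (2.72 ± 1.41 CPM per kb) came last, each overlapping the next. Jak1 made up 66.2 ± 3.32% of the summed level per length of the 4 kinases in the controls and 69.0 ± 2.16% after silencing, and Jak2 25.04 ± 1.21% and 22.9 ± 1.80% (SD, n = 3). The share of Jak3 was 1.05, 3.50 and 3.09% in the controls and 0.57, 1.06 and 2.02% after silencing. Of the 4 phosphatases, Ptpn11 held 64.7 ± 6.62% in the controls and Ptpn6 held 0.21, 4.06 and 5.95%.

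**Figure D4:**
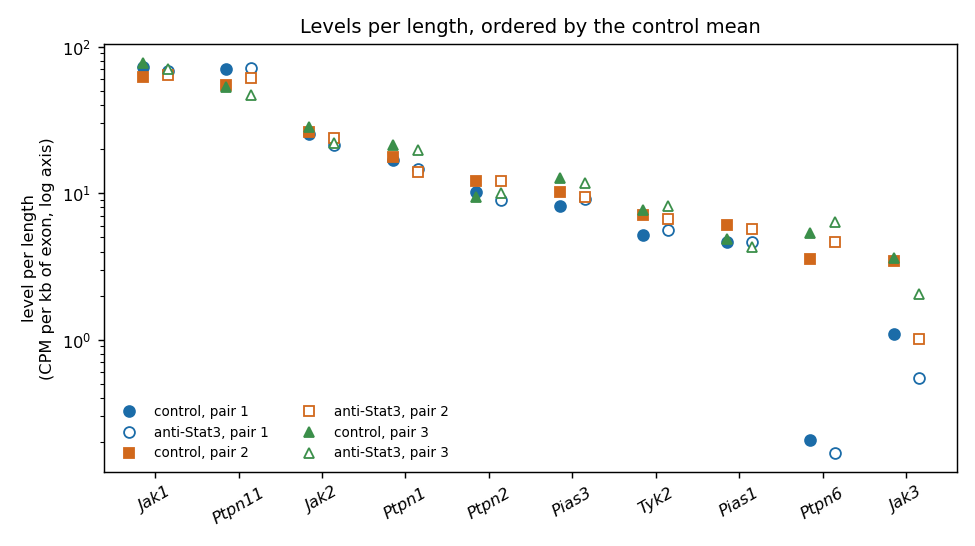
Level per length (vertical log axis, CPM per kb of exon) of the 10 genes in each sample, ordered by the control mean, with filled points for control and open points for anti-Stat3 siRNA. Jak1 and Ptpn11 lead in every sample, and Ptpn6 and Jak3 vary most between pairs.

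The parts of the pathway that surround these genes were read from the same fits. Of 29 tested chains of receptors that signal through JAKs, 2 fell and 0 rose in blocked DESeq2, against 0.783% and 0.873% of all genes. Their median log2 change was -0.08 (edgeR with the group alone). Il4ra, the chain that binds IL-4 and joins the common gamma chain in the IL-4 receptor, had 210, 1034 and 1111 CPM in the controls. It had 172, 350 and 414 CPM after silencing, a blocked DESeq2 change of -1.10 ± 0.23 (SE, adjusted p = 6.2e-04). Its pair changes were -0.29, -1.56 and -1.42, so the difference was small in pair 1. Osmr, the oncostatin M receptor chain that pairs with gp130, fell by 0.85 ± 0.15 on the log2 scale (adjusted p = 8.0e-06). Neither passed in edgeR with the block (adjusted p = 0.17 for Il4ra and 0.14 for Osmr) or with the group alone. Il2rg, the common gamma chain itself, named here after its values were seen, had 0.88, 3.49 and 3.66 CPM with control siRNA against 0.38, 4.38 and 4.60 CPM when silenced. It was thus low in pair 1 with either siRNA, and it did not pass in blocked DESeq2 (adjusted p = 1.00).

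Of the 8 SOCS genes, Socs3, which blocks JAKs at gp130, fell and Socs1, which blocks JAKs at interferon receptors, rose in blocked DESeq2, with log2 changes of -1.83 ± 0.21 and 1.38 ± 0.31 (SE, adjusted p = 3.1e-14 and 0.0012). That was 1 of the 8 in each direction, against 0.783% of all genes lower and 0.873% higher. Blocked edgeR called Socs3 (adjusted p = 0.039) and not Socs1, where it called 0.0376% of all genes lower. Of 14 tested further regulators of the pathway, among them Pias2 and Pias4, and of 11 tested other non-receptor tyrosine phosphatases, 0 passed in any of the 5 fits. Their median log2 changes were -0.02 and -0.09 (edgeR with the group alone). The 30 interferon-stimulated genes had median log2 changes of 0.39, 3.09 and 3.31 in pairs 1 to 3. All 30 were higher in every pair, against 17.3% of all genes. Blocked DESeq2 called 4 of them higher, against 0.873% of all genes, with the smallest p-values for Psmb9, Iigp1 and Igtp. DESeq2 with the group alone called 3 higher, against 16 of all 13284 genes, and both edgeR fits and limma-voom called 0. Their summed level was 6050, 861 and 884 CPM in control samples 1 to 3, and 7763, 7740 and 8273 CPM when silenced. What part these genes have in the values above was not tested.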

How the data were processed

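Poly(A) RNA was sequenced in 6 samples of primary CAFs. The authors deposited raw counts per gene symbol, not normalised. Per the submitters' processing notes, TopHat2 2.0.10 and HTSeq were used, with the mouse build mm9. The columns write "sh" where the titles write "si", and they were matched by group and number. Total counts ranged from 12998168 to 18683852, so a count of 0 allows up to 0.231 CPM (3 counts) in the shallowest library. Levels are CPM scaled with TMM factors, and pair changes use log2 CPM with a prior count of 2.

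Tests used R 4.3.3 and edgeR 4.0.16 (quasi-likelihood F test, group alone, 13284 genes kept by filterByExpr at a minimum count of 10 and minimum total of 15, Benjamini-Hochberg threshold 0.05). The replicate block, DESeq2 1.42.0, limma-voom 3.58.1, other scaling, no filter and omitted samples were alternatives. SE in edgeR is the change divided by the root of F.

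The labels do not say whether replicates are separate cultures, so p-values reflect the spread among these 6 samples alone, which may be technical. The titles number replicates 1 to 3 in both groups. Deviations of same-numbered samples correlated at 0.83, 0.82 and 0.83, so the numbers were taken to pair the samples. Those of unlike numbers correlated at -0.16 or below. Negative values there follow from centring each group on its own mean and add no evidence of pairing. The sources used here do not say what a number shares.

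Exon lengths and overlaps came from GENCODE M21, another build than mm9. All 10 members were named, with Stat3 and up to 3 passing genes of each other list. Members and lists were chosen with earlier results of these data known.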

Additional observations from a re-analysis of the deposited data

How the results depend on the processing

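Across all genes, DESeq2 with the group alone called 17, edgeR and limma-voom with the replicate block each called 8, and DESeq2 with the replicate block called 220, against 0 in edgeR with the group alone. With 1 sample left out of the fit without the block there were 0 to 40 calls, the 40 without control sample 1. With the replicate block and without pair 1, 2 or 3, edgeR called 703, 3 and 0 genes and DESeq2 called 432, 14 and 20. Among the 10 members the replicate block changed 1 call, that of Jak3 in DESeq2 (1 member called), and 0 to 1 members were called with a sample or pair left out. Both calls with a pair left out were of Jak3 without pair 1. The count of members that differed between replicate numbers was 3, and 0 to 4 with a pair left out.

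Of 190 alternative values of the members' changes, 160 kept direction and side of the threshold, 3 passed (all Jak3) and 27 turned direction. Those 27 were of members that passed in no fit. With a term for the naming scheme of the descriptions, which sets pair 3 apart, Ptpn11 changed by -0.0030. With the replicate block in edgeR and DESeq2, Pias3 had changes of 0.018 and 0.019 without pair 2 and of 0.018 and 0.025 without pair 3. Without pair 1 those of Ptpn2 were 0.038 and 0.042, those of Ptpn11 were -0.011 and -0.0075, and that of Tyk2 in edgeR was -0.0019. Without pair 2 those of Ptpn11 were -0.082 and -0.081. With a sample or pair left out the changes ranged from -0.15 to 0.0013 for Jak1, -0.12 to 0.16 for Tyk2, -0.23 to 0.040 for Pias1, -0.18 to 0.14 for Pias3, -0.17 to 0.074 for Ptpn2, -0.34 to 0.97 for Ptpn6 and -0.14 to 0.16 for Ptpn11. Jak2 (-0.32 to -0.20), Jak3 (-1.81 to -0.83) and Ptpn1 (-0.38 to -0.096) were lower under every alternative. Scaling by the DESeq2 factors and testing without a filter on low counts changed no call of a member. Where an omission leaves 2 samples in a group, or 2 pairs, the spread rests on fewer samples. The 7 and 8 counts of Ptpn6 in pair 1 limit the precision of its change there.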
